A study of Mus musculus with 13 samples.

Results

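The genes described here are 49 long intergenic noncoding RNA (lincRNA) genes detected in mouse heart. They were selected on mean expression: a gene that GENCODE M21 types as lincRNA, other than H19 and Meg3, was taken when its FPKM (fragments mapped, scaled for transcript length and library size) averaged at least 2 over the 8 libraries of isolated cells or over the 5 ventricle libraries. Of 1069 lincRNA genes with a transcript in the tables, and 33821 genes of all types, 30 qualified through both sets, 8 through the cells only and 11 through the ventricles only. The level of each gene is therefore a description. Just inside the threshold lay Gm7125, with a mean of 2.03 in ventricles, and C230035I16Rik, with 2.11 in ventricles. Just outside lay Mkln1os, with 1.87 in ventricles, and Ftx, with 1.81 in ventricles.

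All 13 libraries came from wild-type FvB mice with the atria removed. Ventricles gave 1 library at each of E17 (embryonic day 17), PN1 (postnatal day 1), PN10, PN28 and PN90. Cardiomyocytes gave 2 neonatal libraries (PN1 to 2 and PN1), 1 at PN30 and 1 at PN67; fibroblasts gave 2 neonatal libraries (PN1 to 3 and PN1 to 2), 1 at PN28 and 1 at PN60. PN30 with PN67, and PN28 with PN60, are called later here. Neonatal cardiomyocytes were obtained by preplating and later ones by Langendorff perfusion, so for cardiomyocytes the method and the stage cannot be told apart. Fibroblasts were always preplated after enzymatic digestion. Libraries of cells were made with TruSeq RNA protocols and those of ventricles from rRNA-depleted RNA with ScriptSeq, so the sets were tested separately. The labels do not tell whether the neonatal libraries are of different animals or cultures, so the spread between them may be technical. In cells the p-values rest on the spread within neonatal and within later libraries of a cell type, and the later ones differ in age. In ventricles they rest on departures from a straight line over stage order.

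A lincRNA gene lies between protein-coding genes and gives a long transcript without a long recognised reading frame. Some of these RNAs build nuclear bodies, some coat chromosomes, some are the precursors of small nucleolar RNAs (snoRNAs) or microRNAs, and some bind microRNAs or carry short translated frames. In heart they have been studied in postnatal maturation, when cardiomyocytes leave the cell cycle and switch to oxidative metabolism. The longest transcripts of the 49 genes ran from 273 to 20771 nt with a median of 1511 nt. RefSeq held 36 of the genes and typed 27 as noncoding, 5 as protein-coding and 4 as pseudogenes. A transcript of another gene matched at 95% identity or more over at least 50% of the length for 13 genes, and 9 overlapped a protein-coding gene, 6 of them on the opposite strand. The sources used here do not say whether the counting used strand.

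The isolated cells carried their markers. The summed FPKM of 10 measured of 12 listed cardiomyocyte markers ran from 11888 to 12842 in neonatal and from 44880 to 46007 in later cardiomyocytes, against 1131 to 1328 in neonatal and 27.0 to 35.2 in later fibroblasts. The 7 measured fibroblast markers summed to 1526 to 2157 in fibroblasts and 189 to 230 in cardiomyocytes. Other cell types moved with stage: the 9 macrophage and leukocyte markers summed to 143 to 286 in neonatal and 1009 to 1253 in later fibroblasts, and to 107 to 142 in neonatal and 334 to 351 in later cardiomyocytes. The 3 measured erythroid markers summed to 15377 to 20440 in neonatal and 712 to 1103 in later cardiomyocytes, and the 9 endothelial markers to 1343 to 1570 and 505 to 534. No marker measured was at 0 in any cell library. Their part in the lincRNA changes was not tested.

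The abundance of the 49 genes was uneven. Gm10076 made up 81.1% and 82.6% of their summed FPKM in the neonatal cardiomyocyte libraries, Gm12840 made up 75.7% and 77.4% in the later fibroblasts, and Malat1 made up 52.1% to 66.5% in the ventricles. The median gene averaged 3.88 FPKM in cells and 4.98 in ventricles. In cells 13 genes averaged over 10 FPKM and 2 over 100.

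**Figure D1:**
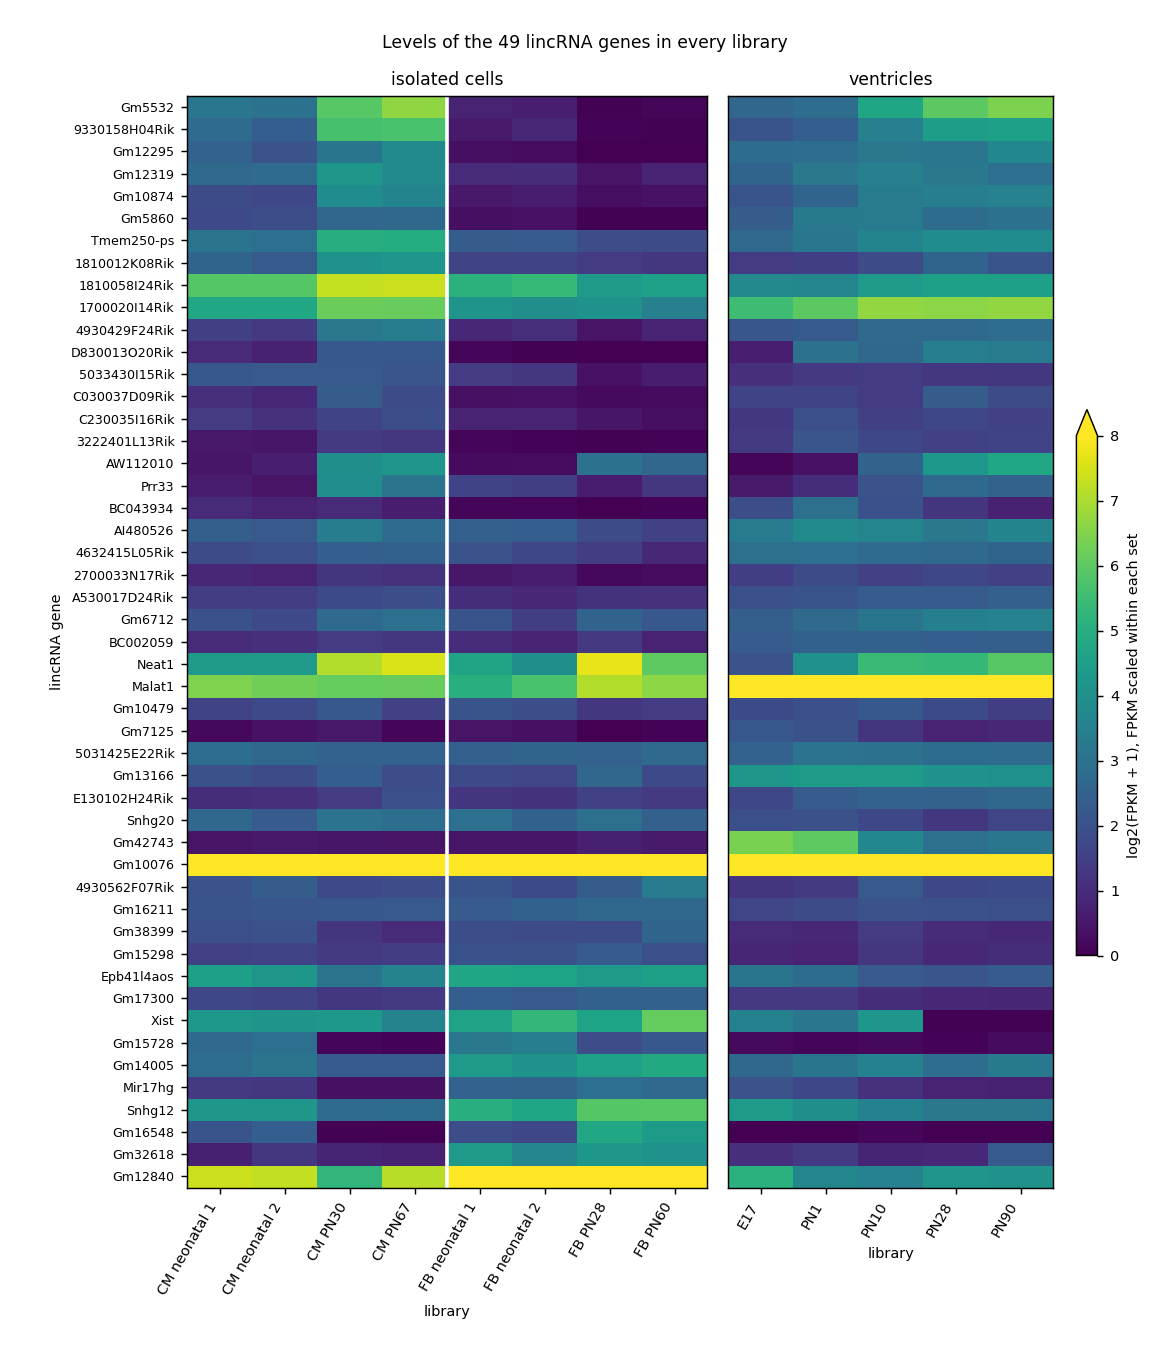
Heat map of log2(FPKM + 1) for the 49 lincRNA genes (rows) in the 8 libraries of isolated cells (CM, cardiomyocytes; FB, fibroblasts) and the 5 ventricle libraries (columns), FPKM scaled within each set and rows ordered by the difference between cardiomyocytes and fibroblasts. Gm5532 and 9330158H04Rik stand at the top and Gm12840 at the bottom; the colour scale is capped, which Gm10076 passes in all 13 libraries.

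Mean levels differed between cells and ventricles in both directions: 26 genes averaged more in ventricles and 23 more in cells, with a median ratio of 1.197. Malat1 averaged 21.6 times as much in ventricles and Gm42743 averaged 82.1 times as much, while Gm12840 was at 0.011 times its cell level and Gm16548 and Gm15728 were under 0.2 FPKM in every ventricle library. The kit, the RNA selection and the cells present differ together between the sets and cannot be told apart, so no test was made across them.

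**Figure D2:**
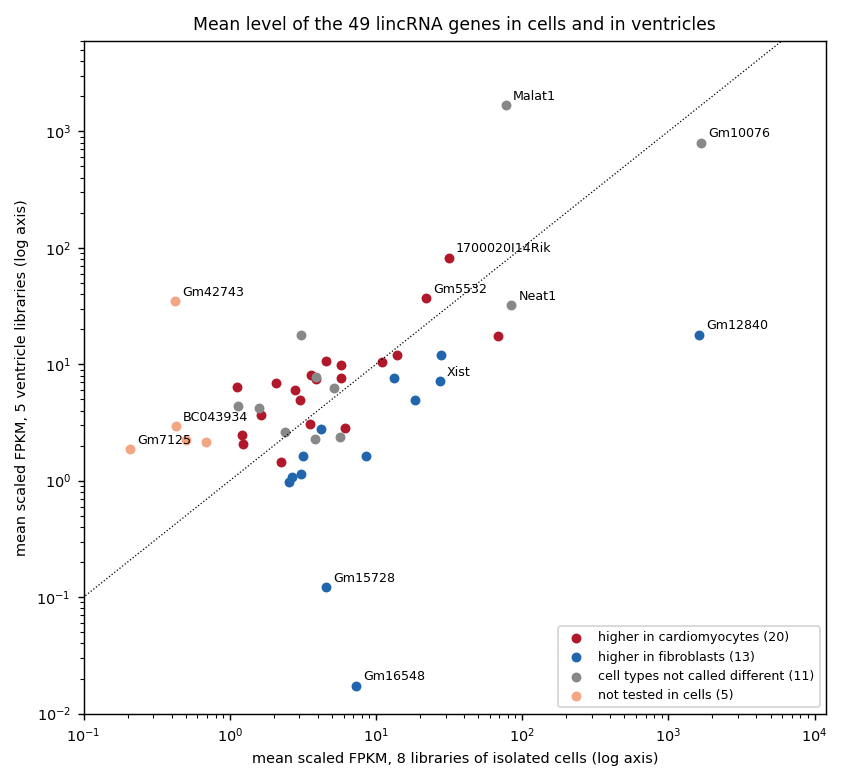
Mean scaled FPKM of each of the 49 genes in the 8 cell libraries (x, log axis) and the 5 ventricle libraries (y, log axis), coloured by the call between cardiomyocytes and fibroblasts; the dotted line marks equal values. The 13 genes higher in fibroblasts all lie below the line, and Malat1 and Gm42743 lie far above it.

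Of the 49 genes, 44 were tested in the cells and 46 in the ventricles. Between neonatal and later cardiomyocytes 21 genes rose and 9 fell (limma on log2(FPKM + 1), adjusted p under 0.05), which is 47.7% and 20.5% of the 44. Of all 12076 genes tested, 37.2% rose and 29.8% fell. The median change of the 44 was 0.45 on the log2 scale and that of all genes 0.10. In fibroblasts 8 rose and 9 fell, 18.2% and 20.5%, against 19.7% and 20.8% of all genes. The change itself differed between the cell types for 32 genes: it was higher in cardiomyocytes for 20 and lower for 12, against 32.2% and 26.3% of all genes. A gene that reached the selection threshold through 1 group had to differ between groups, so these counts describe the genes selected and say nothing of lincRNA genes as a class. The split also moves with the scaling: on FPKM as deposited 17 rose and 12 fell in cardiomyocytes and 6 rose and 17 fell in fibroblasts, and with mitochondrial genes removed and sums set equal 15 rose and 14 fell in cardiomyocytes and 6 rose and 17 fell in fibroblasts. On FPKM as deposited the median of all genes was -0.19 in cardiomyocytes and -0.29 in fibroblasts, so all changes are relative to the scaling used. Leaving out neonatal fibroblast library 2 brought the fibroblast counts to 5 and 4, and leaving out library 1 left 5 falls.

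In 15 genes the level rose in cardiomyocytes with no call in fibroblasts, in 4 it rose in cardiomyocytes and fell in fibroblasts, and in 3 (Gm14005, Gm16548 and Snhg12) it fell in cardiomyocytes and rose in fibroblasts. Those are 34.1%, 9.09% and 6.82% of the 44, against 23.4%, 6.90% and 5.46% of all genes tested. Neat1 and AW112010 rose in both and Gm10076 and Gm15728 fell in both, which is 4.55% each, against 6.93% and 8.56% of all genes. The other counts were 8 genes with no call in either (18.2%, against 20.4%), 4 that fell in cardiomyocytes alone (9.09%, against 15.7%), and 3 each that rose or fell in fibroblasts alone (6.82%, against 7.33% and 5.30%), where alone means with no call in the other cell type.

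**Figure D3:**
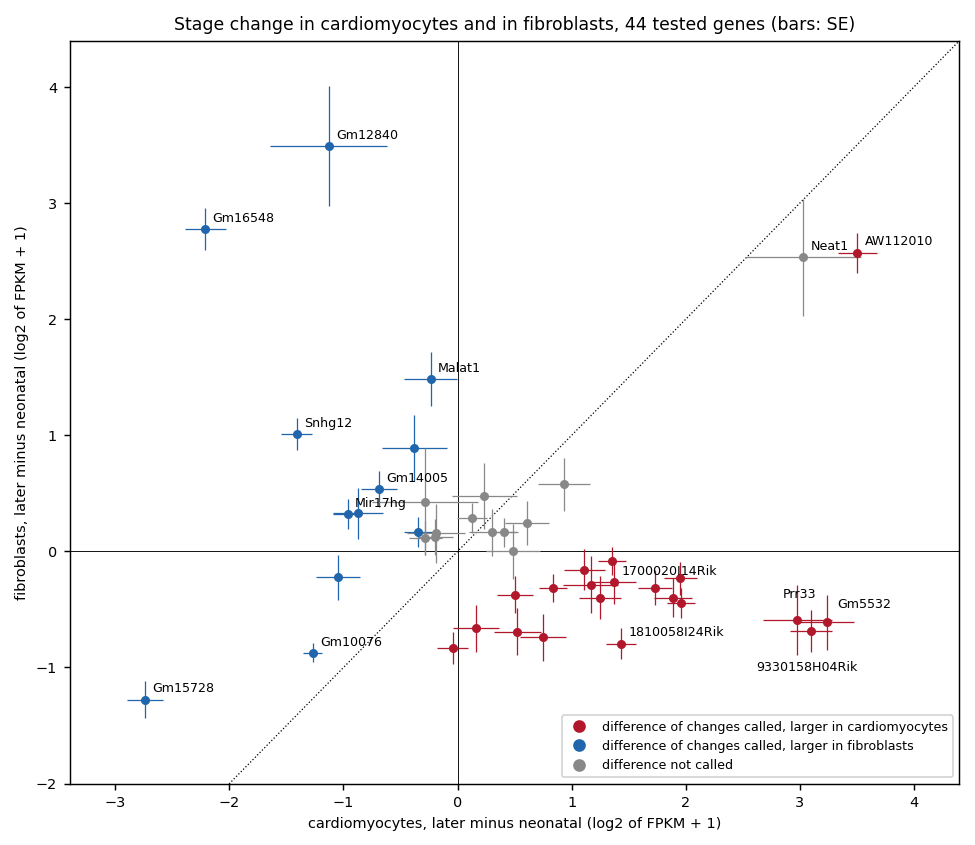
Later minus neonatal change (log2 of FPKM + 1) in cardiomyocytes (x) and fibroblasts (y) for the 44 tested genes, with bars of 1 SE; red and blue mark genes whose 2 changes differed in the test of the difference, and the dotted line marks equal changes. Gm5532, 9330158H04Rik and Prr33 lie far right below 0, Gm12840, Gm16548 and Snhg12 upper left, and Neat1 near the line.

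Averaged over stages, 20 genes were higher in cardiomyocytes and 13 in fibroblasts, against 37.1% and 39.5% of all genes. In neonatal cells 16 were higher in cardiomyocytes and 8 in fibroblasts, against 21.5% and 19.1% of all genes, and in later cells 21 and 16, against 38.4% and 39.3%. Without single neonatal libraries the neonatal counts were as low as 9 (without cardiomyocyte library 1) and 4 (without either cardiomyocyte library or fibroblast library 1).

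In the ventricles the slope over the 5 stages, in log2 units per stage, rose for 14 genes and fell for 5, against 20.4% and 14.6% of 11621 genes. In whole ventricle, fewer cells of a type and less RNA per cell cannot be told apart. The 14 genes that rose in ventricles were all among the 21 that rose in cardiomyocytes, which is 100% of the ventricle rises and 66.7% of the cardiomyocyte rises; over all genes tested in both sets the shares were 82.1% and 43.3%. Of the 3 ventricle falls among the 41 genes tested in both sets, 2 also fell in cardiomyocytes, which is 66.7% of the ventricle falls and 28.6% of the 7 cardiomyocyte falls, against 68.9% and 33.6% over all genes. The ventricle counts rest on the E17 library: without it 3 rose and 1 fell, and without PN1 or PN28 9 rose. On FPKM as deposited 8 rose and 12 fell, and with mitochondrial genes removed 6 rose and 10 fell.

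**Figure D4:**
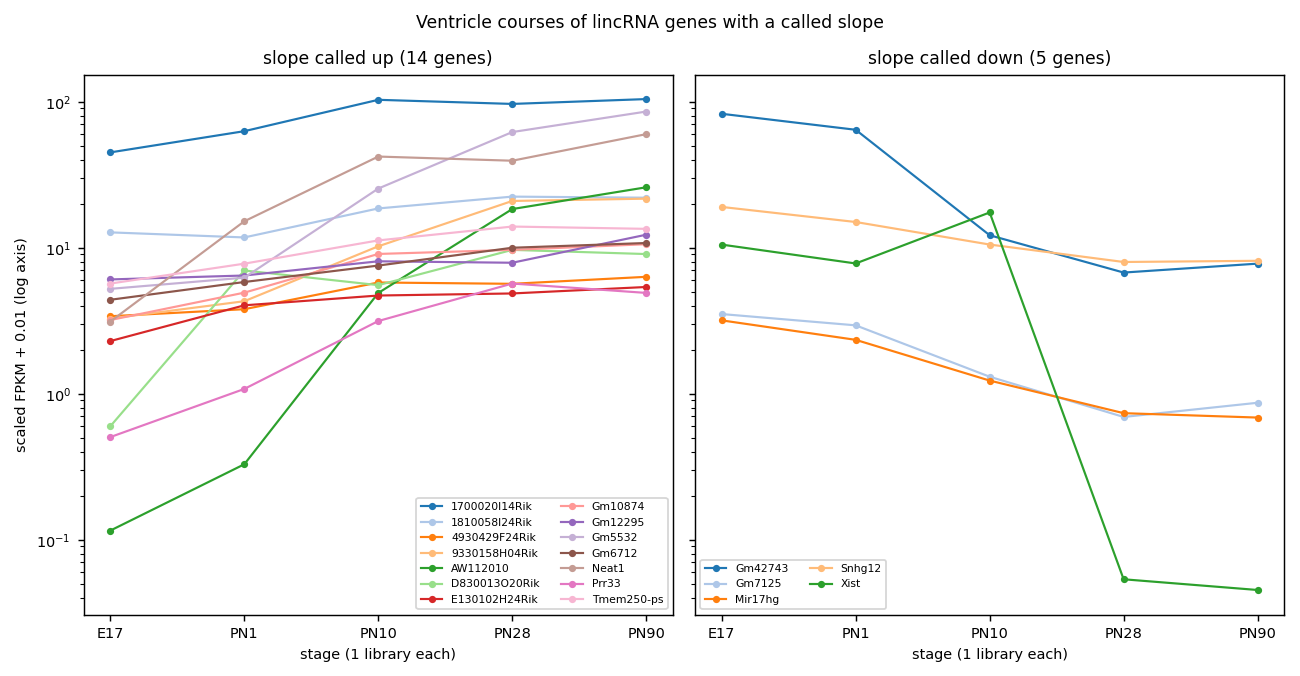
Scaled FPKM + 0.01 (log axis) of the 14 genes with a called rise (left) and the 5 with a called fall (right) over the ventricle stages, 1 library per stage. AW112010 climbs from 0.11 at E17 to 25.9 at PN90, and Xist drops to 0.0436 and 0.0353 in the last 2 libraries.

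Neat1 and Malat1 lie near each other on chromosome 19, Neat1 at chr19:5824708-5845478 and Malat1 at chr19:5795690-5802671 (mm9, minus strand). Neat1 RNA scaffolds paraspeckles, and Malat1 RNA collects in nuclear speckles. Neat1 measured 18.7 and 18.6 FPKM in the neonatal cardiomyocyte libraries and 135 and 188 at PN30 and PN67; in fibroblasts it measured 24.6 and 14.9, then 211 and 63.3. It rose in both, by 3.03 (SE 0.50, adjusted p = 0.0011) in cardiomyocytes and 2.53 (SE 0.50, adjusted p = 0.0060) in fibroblasts, and later libraries did not overlap neonatal ones. The difference between the changes, 0.50 with SE 0.71, had an adjusted p of 0.57. Without the PN28 fibroblast library, which had the highest value, the fibroblast change was 1.67, and without neonatal fibroblast library 2 it was 2.19 with an adjusted p of 0.051. In ventricles Neat1 went from 3.11 at E17 through 15.2, 42.1 and 39.4 to 59.96 at PN90, a slope of 0.91 (SE 0.17, adjusted p = 0.010); without E17 the slope was 0.57 with an adjusted p of 0.061.

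The 3004-nt short form carried 90.6% to 95.4% of Neat1 FPKM in cells, and the 20771-nt long form, on which paraspeckles depend, 1.80% to 2.67%. In ventricles the short form carried 86.7% to 96.0% and the long form 3.55% to 12.99%. The RNA selection differs between the sets, and its part in these shares was not tested. The long form measured 0.414 and 0.423 FPKM in neonatal and 2.43 and 3.502 in later cardiomyocytes. The short form overlaps the start of the long one, so the split rests on Cufflinks' apportioning of shared reads. The nearest measured coding gene, Frmd8 at 4224 bp, fell in cardiomyocytes (-1.32) and in fibroblasts (-0.97).

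Malat1 measured 86.6 and 76.4 FPKM in neonatal and 68.7 and 69.4 in later cardiomyocytes, and 31.6 and 51.4 in neonatal and 133 and 99.5 in later fibroblasts. The fibroblast change of 1.49 (SE 0.23, adjusted p = 0.0021) passed the test, the cardiomyocyte change of -0.23 (SE 0.23) did not, and the 2 differed by -1.72 (SE 0.33, adjusted p = 0.0031). It was higher in cardiomyocytes among neonatal cells (0.99) and higher in fibroblasts among later cells (-0.73). The neonatal difference was 0.65 with an adjusted p of 0.064 without fibroblast library 1, and 0.90 with 0.084 without cardiomyocyte library 1. The later one was -0.52 with an adjusted p of 0.096 without the PN28 fibroblast library, and its adjusted p was 0.074 without the PN30 and 0.069 without the PN67 cardiomyocytes. In ventricles Malat1 measured 1732, 1918, 2091, 1161 and 1436 from E17 to PN90, with no called slope (-0.13). Short transcripts made up much of this: the 556-nt form held 19.7% to 37.0% of Malat1 FPKM in ventricles and 0.201% to 3.17% in cells.

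Xist coats the inactive X chromosome in female cells. It measured 18.3, 16.8, 18.2 and 11.04 FPKM in the cardiomyocyte libraries from neonatal to PN67 and 23.6, 37.9, 24.04 and 68.1 in the fibroblast libraries. In ventricles it went from 10.496, 7.79 and 17.4 to 0.0436 at PN28 and 0.0353 at PN90. The summed FPKM of 4 Y-linked genes (Ddx3y, Eif2s3y, Kdm5d and Uty) was 61.1, 107, 83.3, 182 and 180 in the same ventricle libraries, and 14.5 in the PN60 fibroblasts against 60.6 at PN28. The first 3 ventricle libraries and all cell libraries thus held RNA of Xist and of Y-linked genes together. The last 2 ventricle libraries held RNA of Y-linked genes with almost none of Xist. For Xist, the stage and the sex of the animals therefore cannot be told apart in ventricles. The ventricle slope of Xist, -1.002 (SE 0.31, adjusted p = 0.049), had its lowest values in those last 2 libraries, and its call was lost without E17, PN1, PN28 or PN90 (adjusted p 0.096 to 0.18) and under 4 other settings (adjusted p 0.051 to 0.33). The difference between cell types (-1.09, adjusted p = 0.016) was -0.73 without the PN60 fibroblasts and lost its call without the PN67 cardiomyocytes (adjusted p = 0.059) or neonatal fibroblast library 2 (adjusted p = 0.060).

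Snhg12, Epb41l4aos and Snhg20 host snoRNAs, a class that mostly guides the chemical modification of ribosomal RNA and is cut from introns of the host. Snhg12 at chr4:131864593-131866939 (mm9) holds 5 annotated snoRNA genes (2 named Snora16a, with Snora44, Snora61 and Snord99). It measured 17.6 and 17.7 FPKM in neonatal and 6.001 and 6.07 in later cardiomyocytes, and 32.3 and 25.7 in neonatal and 58.9 and 59.5 in later fibroblasts. The groups did not overlap in either cell type, and the directions were opposite: it fell by 1.41 (SE 0.14, adjusted p = 7.6e-05) in cardiomyocytes and rose by 1.01 (SE 0.14, adjusted p = 0.0011) in fibroblasts. In ventricles it measured 19.02, 15.0, 10.51, 7.98 and 8.13, a slope of -0.31 (SE 0.05), which had an adjusted p of 0.085 without E17. Snhg12 lies 739 bp from Trnau1ap, which rose in cardiomyocytes (0.46) and in fibroblasts (0.59).

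Host genes of this kind often start within a run of pyrimidines, a feature shared with ribosomal protein genes. The RefSeq promoter of Snhg12, chr4:132308428-132308727 on the plus strand of GRCm38.p6, has such a run of 9 bases, beginning 3 bases before the annotated start. It is shown because the start bears that run, in capitals.
Snhg12: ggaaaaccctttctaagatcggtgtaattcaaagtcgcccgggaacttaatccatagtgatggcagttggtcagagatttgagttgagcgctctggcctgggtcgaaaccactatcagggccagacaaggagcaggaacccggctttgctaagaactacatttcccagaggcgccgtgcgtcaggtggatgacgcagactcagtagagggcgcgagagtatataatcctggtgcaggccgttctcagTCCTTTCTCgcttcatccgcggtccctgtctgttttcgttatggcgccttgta

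Epb41l4aos measured 21.6 and 17.8 FPKM in neonatal and 7.39 and 10.9 in later cardiomyocytes and fell (-1.05, SE 0.19, adjusted p = 0.0020); in fibroblasts it stayed between 19.2 and 25.2 with a change of -0.22. Epb41l4a, its neighbour 341 bp away, rose by 0.43 in cardiomyocytes. Snhg20 measured 3.88 to 7.19 in cells, with no call for stage in either cell type. Across a list of snoRNA hosts of any gene type, 10 were tested. With stage in cardiomyocytes 9 fell, against 29.8% of all genes. Averaged over stages 9 were lower in cardiomyocytes than in fibroblasts, against 39.5% of all genes. The genes were the same in both counts: Snhg12 and Epb41l4aos with Gas5, Dancr, Zfas1, Snhg3, Snhg15, Snhg17 and 2410006H16Rik. In fibroblasts 4 of the 10 rose (Snhg12, Snhg15, Snhg17 and Zfas1), against 19.7% of all genes. In ventricles 6 fell, against 14.6% of all genes. The list medians were -1.07 in cardiomyocytes, 0.13 in fibroblasts and -0.24 per stage in ventricles, beside 0.10, -0.02 and 0.01 for all genes.

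Mir17hg at chr14:115442101-115445949 (mm9) is the precursor of the miR-17-92 cluster, known for driving proliferation. It measured 1.57 and 1.40 FPKM in neonatal and 0.27 and 0.27 in later cardiomyocytes, 4.66 and 4.79 in neonatal fibroblasts and 6.63 and 5.70 in later ones. It fell in cardiomyocytes by 0.96 (SE 0.13, adjusted p = 0.00036), had no call in fibroblasts (0.32, adjusted p = 0.082) and was lower in cardiomyocytes throughout (-1.85). Mir17hg was selected through the cells only, where its fibroblast values carried the mean over the threshold. Its difference between cell types thus only describes the gene selected. In ventricles it decreased at each step, from 3.17 at E17 to 0.68 at PN90, with a slope of -0.36 (SE 0.06, adjusted p = 0.0077; 0.068 without E17). These are levels of the host transcript, and mature microRNAs were not measured. Of 4 tested hosts on a microRNA host list, 2 fell in cardiomyocytes (Mir17hg and Mir22hg) and 1 rose (Mir99ahg). Of all genes tested, 29.8% fell and 37.2% rose there. The nearest measured coding gene, Tpm3-rs7, lies 1726166 bp away.

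The 6 mature RefSeq sequences made from Mir17hg are shown with the seed, bases 2 to 8, in capitals, because they fall into 4 seed groups: miR-17 with miR-20a, miR-19a with miR-19b, miR-18a alone and miR-92a alone.
mmu-miR-17-5p: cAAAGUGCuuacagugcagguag
mmu-miR-20a-5p: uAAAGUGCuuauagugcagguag
mmu-miR-18a-5p: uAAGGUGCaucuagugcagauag
mmu-miR-19a-3p: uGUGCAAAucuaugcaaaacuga
mmu-miR-19b-3p: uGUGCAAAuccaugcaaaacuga
mmu-miR-92a-3p: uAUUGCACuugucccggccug

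1700020I14Rik at chr2:119420033-119433238 (mm9), which RefSeq names Oip5os1, is the mouse Cyrano RNA, known for a conserved site that pairs with miR-7 and brings about its decay. It measured 26.9 and 26.3 FPKM in neonatal and 71.5 and 69.4 in later cardiomyocytes, and 16.5, 14.4, 15.8 and 10.1 in fibroblasts. It rose in cardiomyocytes by 1.37 (SE 0.19, adjusted p = 0.00048) and not in fibroblasts (-0.26, adjusted p = 0.31), with a difference of 1.64 (SE 0.27, adjusted p = 0.0017). In ventricles it measured 45.0, 62.8, 103, 96.6 and 104, and the slope of 0.30 had an adjusted p of 0.026; the call was lost without E17 (0.21, adjusted p = 0.22), PN1 or PN28, and on FPKM as deposited (0.17, adjusted p = 0.097). The 8300-nt form, which holds the site, measured 16.1 and 14.6 in neonatal and 55.9 and 51.9 in later cardiomyocytes. Oip5, 2010 bp away, is a cell division gene and went the other way, falling by 1.31 in cardiomyocytes and by 0.75 per stage in ventricles.

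The 8300-nt transcript has 2 matches to the miR-7 seed. The one shown, transcript bases 2930 to 2959, has a further 13-base complement to the 3′ part of miR-7a upstream of the seed match; the other has a 3-base one. Capitals mark the paired stretches in the transcript and the seed in the microRNA.
1700020I14Rik: taagaACAACAAAATCACcaatGTCTTCCa
mmu-miR-7a-5p: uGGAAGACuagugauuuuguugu

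Gm14005 at chr2:128021729-128255085 (mm9) is Morrbid in RefSeq, an RNA known in short-lived myeloid cells for repressing the pro-apoptotic gene Bcl2l11. It measured 6.44 and 7.40 FPKM in neonatal and 3.98 and 3.83 in later cardiomyocytes, against 18.6 and 15.8 in neonatal and 23.0 and 27.9 in later fibroblasts. It fell in cardiomyocytes (-0.69, SE 0.15) and rose in fibroblasts (0.54, SE 0.15, adjusted p = 0.027). The fibroblast call was lost on FPKM as deposited (0.20, adjusted p = 0.30) and without any of neonatal fibroblast library 2 (0.42, adjusted p = 0.17), the PN60 fibroblasts or either neonatal cardiomyocyte library. Bcl2l11, 33446 bp away, measured 30.5 and 34.5 in neonatal and 3.45 and 5.17 in later cardiomyocytes and fell (-2.67), with no call in fibroblasts (0.13). Each of the 9 macrophage and leukocyte markers was lower in cardiomyocytes, against 39.5% of all genes. The part of these markers' cells in the Gm14005 difference was not tested.

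Several genes of the set carry short reading frames. 1810058I24Rik at chr6:35202654-35213496 (mm9) is typed protein-coding by RefSeq and is known as the gene of a small mitochondrial protein. It measured 57.9 and 58.7 FPKM in neonatal and 155 and 163 in later cardiomyocytes, and 34.2 and 40.0 in neonatal and 19.3 and 22.6 in later fibroblasts. It rose in cardiomyocytes (1.43, SE 0.13, adjusted p = 5.6e-05) and fell in fibroblasts (-0.79, SE 0.13, adjusted p = 0.0027), and neither pair of groups overlapped. The cardiomyocyte marker sum in fibroblasts also went down with stage, as given above, and its part in this fall was not tested. The ventricle slope of 0.24 had an adjusted p of 0.028, and the call was lost without E17 (0.28, adjusted p = 0.10), PN1, PN28 or PN90. The nearest measured coding gene in cells was Fam180a (49250 bp), which fell in cardiomyocytes (-2.07); in ventricles it was Nup205 (5064 bp), which fell (-0.44). The frame of 47 codons in transcript 1810058I24Rik-203 is printed because it is the one reported as translated, with start and stop codons in capitals. The longest frame over the gene's 3 transcripts, of 75 codons, lies in another of them.
1810058I24Rik: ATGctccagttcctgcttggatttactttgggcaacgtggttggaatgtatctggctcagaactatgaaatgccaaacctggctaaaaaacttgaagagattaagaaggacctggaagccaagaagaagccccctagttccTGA

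AW112010, an RNA induced by inflammatory signals in immune cells and reported to be translated, had the largest rise in cardiomyocytes among the genes. It measured 0.405 and 0.598 FPKM in neonatal and 14.8 and 17.3 in later cardiomyocytes, and 0.167 and 0.209 in neonatal and 7.08 and 5.19 in later fibroblasts. The changes were 3.51 (SE 0.17, adjusted p = 6.1e-06) and 2.57 (SE 0.17, adjusted p = 5.1e-05), and they differed by 0.93 (adjusted p = 0.012); with a pseudocount of 0.1 that difference was 0.34 with an adjusted p of 0.44, and without neonatal cardiomyocyte library 1 its adjusted p was 0.054. In ventricles it rose by 1.31 per stage (SE 0.14, adjusted p = 0.0042), from 0.11 at E17 to 25.9 at PN90. All 9 macrophage and leukocyte markers rose with stage in fibroblasts, against 19.7% of all genes. In cardiomyocytes 5 of the 9 rose and 1 fell, against 37.2% and 29.8% of all genes. The part of these markers' cells in the rise of AW112010 was not tested. Ccdc86, 98347 bp away, fell in cardiomyocytes (-0.68) and rose in fibroblasts (0.71).

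Prr33, which holds the longest reading frame of the set at 260 codons, overlaps Lsp1 and Tnnt3 on the opposite strand. It measured 0.54 and 0.34 FPKM in neonatal and 14.2 and 7.40 in later cardiomyocytes and rose by 2.98 (SE 0.30, adjusted p = 9.4e-05). In fibroblasts it measured 2.02, 1.77, 0.54 and 1.40 (-0.59, adjusted p = 0.16). Its ventricle slope was 0.56 (SE 0.09, adjusted p = 0.0074; 0.065 without E17). Lsp1 had no call for stage in cardiomyocytes (0.54) and was higher in fibroblasts; Tnnt3 was at most 1.00 FPKM in cardiomyocytes.

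The genes most biased to cardiomyocytes rose with stage there. Gm5532 at chr1:157367303-157374241 (mm9, minus strand) measured 7.79 and 6.91 FPKM in neonatal and 59.4 and 101 in later cardiomyocytes, and 0.69 and 0.59 in neonatal and 0.04 and 0.11 in later fibroblasts. It rose by 3.24 (SE 0.24, adjusted p = 2.1e-05) and was 4.27 higher in cardiomyocytes than in fibroblasts on the log2 scale (SE 0.17, adjusted p = 3.3e-07). In ventricles it measured 5.22, 6.23, 25.4, 62.0 and 85.6, rising at each step (1.07, SE 0.11, adjusted p = 0.0042). Acbd6, 31009 bp away, rose by 0.69 in cardiomyocytes. Its RefSeq promoter, chr1:155527062-155527361 on the minus strand of GRCm38.p6, is printed because it holds a 10-base MEF2 match, in capitals, that begins 125 bases before the start; MEF2 proteins are muscle transcription factors. Searched by name on both strands, the MEF2 motif matched in 3.70% of 27025 promoters of this length and in 3 of the 28 members with one (1810058I24Rik, Gm5532 and Malat1), which is 10.7%. The CArG motif, also searched by name, matched in none of the 28, against 1.81% of all promoters. TATAAA matched in 3 (10.7%, against 15.7%), AGATAA in 3 (10.7%, against 12.7%) and CAGCTG in 5 (17.9%, against 18.3%), on either strand. A match is a description of letters, not a shown site.
Gm5532: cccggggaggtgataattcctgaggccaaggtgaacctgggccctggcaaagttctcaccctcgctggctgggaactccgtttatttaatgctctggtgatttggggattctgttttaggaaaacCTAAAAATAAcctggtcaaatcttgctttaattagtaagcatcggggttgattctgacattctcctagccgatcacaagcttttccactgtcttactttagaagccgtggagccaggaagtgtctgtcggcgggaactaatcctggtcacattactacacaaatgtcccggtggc

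9330158H04Rik overlaps Chrm2, the muscarinic receptor that slows the heart, on the opposite strand. It measured 5.90 and 4.23 FPKM in neonatal and 49.5 and 51.2 in later cardiomyocytes and at most 0.91 in fibroblasts. It rose by 3.10 (SE 0.18, adjusted p = 1.0e-05), and its fall in fibroblasts (-0.68, adjusted p = 0.021) was lost without neonatal fibroblast library 2 (-0.501, adjusted p = 0.14). Chrm2 measured 4.67 and 2.73 in neonatal and 33.5 and 27.9 in later cardiomyocytes and rose by 2.78. In ventricles 9330158H04Rik rose from 3.26 to 21.7 (slope 0.69, SE 0.08, adjusted p = 0.0044) and Chrm2 from 20.1 to 84.8 (slope 0.59). Reads of the 2 genes cannot be told apart where they overlap unless strand was used. The cardiomyocyte marker sum of neonatal fibroblasts was 9.95% of that of neonatal cardiomyocytes. In later cells it was 0.068%. The part of such RNA in the low fibroblast values of 9330158H04Rik, Gm5532 and Gm12295 was not tested.

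Gm12295 lies 7665 bp from Myocd, the coactivator of cardiac and smooth muscle genes. It measured 4.74 and 3.16 FPKM in neonatal and 7.60 and 12.98 in later cardiomyocytes, and 0.25, 0.20, 0.00226 and 0.00231 in fibroblasts; it was 2.73 higher in cardiomyocytes (SE 0.17, adjusted p = 3.8e-06) and rose with stage (1.17, SE 0.24). Myocd was likewise higher in cardiomyocytes (2.58) but had no call for stage (0.50). The ventricle slope of Gm12295 (0.21, adjusted p = 0.031) was 0.13 with an adjusted p of 0.23 without PN90. Gm12319, 97 bp from Pfn1, measured 5.85 and 5.93 in neonatal and 17.8 and 13.3 in later cardiomyocytes and at most 1.04 in fibroblasts (2.61 higher in cardiomyocytes, SE 0.13), while Pfn1 was lower in cardiomyocytes (-0.74) and fell there with stage (-0.63). Tmem250-ps measured 7.48 and 6.63, then 30.6 and 29.98 (rise 1.96, SE 0.13), and 1810012K08Rik, which it overlaps on the opposite strand and with which it shares sequence, rose by 1.73. Reads of these 2 genes cannot be told apart where they overlap unless strand was used, so the 2 rises may not be separate. Nacc2, 13594 bp from Tmem250-ps, rose by 1.94. 4930429F24Rik measured 1.86 and 1.49, then 8.26 and 9.60 (rise 1.89, SE 0.17), and Tmem30a, 134 bp away, had no call (0.22).

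**Figure D5:**
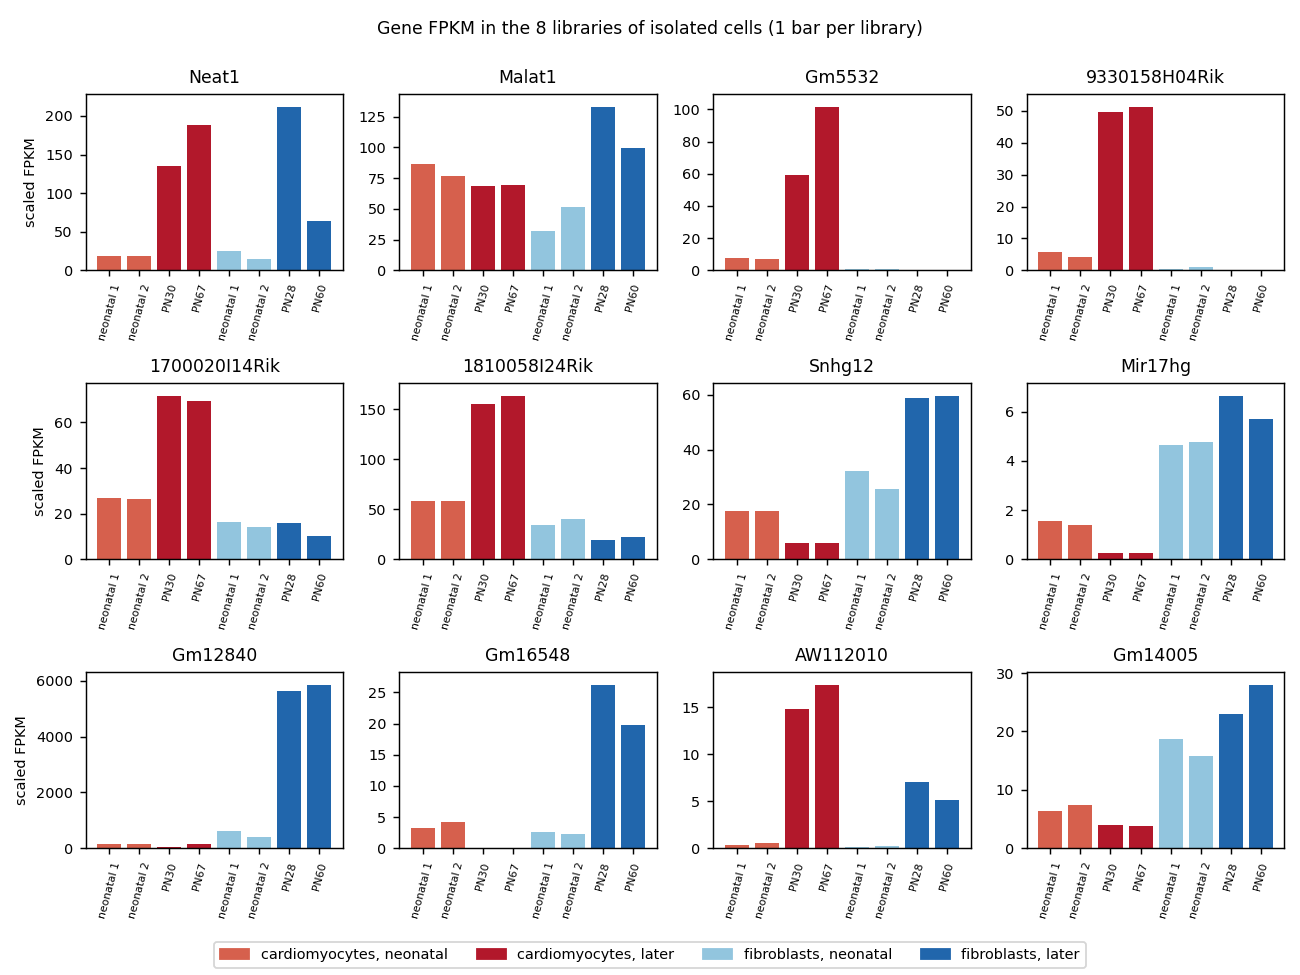
Scaled FPKM of 12 lincRNA genes in each of the 8 libraries of isolated cells, 1 bar per library from 0, coloured by cell type and stage. Gm5532 and 9330158H04Rik are high in later cardiomyocytes and near 0 in fibroblasts, Gm12840 reaches 5623 and 5841 in later fibroblasts, and Neat1 is high in later libraries of both cell types.

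Gm12840 dominated the later fibroblasts. This 627-nt RNA at chr4:117372793-117373528 (mm9) measured 635 and 405 FPKM in neonatal and 5623 and 5841 in later fibroblasts, and 167, 153, 37.6 and 139 in cardiomyocytes. The rise in fibroblasts was 3.495 (SE 0.51, adjusted p = 0.0016), the cardiomyocyte change was -1.13 (adjusted p = 0.085), and the level was 3.97 lower in cardiomyocytes. In ventricles it measured 10.6 to 33.8 with no call. Its sequence is 97.5% identical to that of Gm20186, which was not analysed here, so its level is uncertain. Dmap1, 17915 bp away, was higher in cardiomyocytes (1.14).

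Gm16548 overlaps Selp, and F5 beside it, on the opposite strand. Selp is the gene of P-selectin, an adhesion molecule of endothelium and platelets. Gm16548 measured 3.26 and 4.25 FPKM in neonatal and 0.03 and 0.02 in later cardiomyocytes, and 2.68 and 2.25 in neonatal and 26.2 and 19.7 in later fibroblasts. It fell in cardiomyocytes (-2.21, SE 0.18) and rose in fibroblasts (2.78, SE 0.18), a difference of -4.99 (SE 0.25, adjusted p = 1.0e-05), the largest of the 44. Selp measured 18.8 and 23.2, then 0.33 and 0.30 in cardiomyocytes, and 14.1 and 12.9, then 145 and 109 in fibroblasts, with changes of -4.06 and 3.13. Without knowledge of strand the reads of the 2 genes cannot be told apart. Gm32618, whose locus meets that of Sdc2, the gene of a surface proteoglycan, measured 0.61 to 1.39 in cardiomyocytes and 11.8 to 18.9 in fibroblasts. Its level was 3.20 lower in cardiomyocytes (SE 0.18), with no call for stage in either cell type. Gm32618 was selected through the cells only, where its fibroblast values carried the mean over the threshold. The difference between cell types thus only describes the gene selected. Sdc2 was 2.19 lower in cardiomyocytes. Gm15728, 92 bp from the replication gene Rfc5, measured 5.63 and 6.51, then 0.07 and 0.05 in cardiomyocytes, and 8.19 and 9.75, then 2.70 and 3.55 in fibroblasts. It fell in both, by 2.74 (SE 0.16) and 1.28 (SE 0.16), and Rfc5 fell in both, by 1.13 and 0.68.

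Some of the highest values belong to near copies of coding genes. Gm10076, typed pseudogene by RefSeq, is 99.5% identical to Rpl41, the gene of a ribosomal protein, which was not analysed here. It measured 2279 and 2347 FPKM in neonatal and 966 and 951 in later cardiomyocytes, and 2132 and 2261, then 1177 and 1220 in fibroblasts. It fell in both, by 1.27 (SE 0.08) and 0.87 (SE 0.08), with no called ventricle slope (-0.23). Reads of the 2 genes can hardly be separated, so the level may be that of either. The 25-codon frame of Gm10076, printed in lower case because nothing differs, is the same base for base as that of Rpl41. Spry2, the nearest measured coding gene at 209745 bp, fell in cardiomyocytes (-1.83).
Gm10076: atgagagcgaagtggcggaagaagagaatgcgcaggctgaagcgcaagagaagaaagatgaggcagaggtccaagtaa

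Gm10874 is 98.8% identical over 70% of its length to Got2, the mitochondrial aspartate aminotransferase. It measured 2.65 and 2.24, then 13.7 and 11.1 FPKM in cardiomyocytes and rose by 1.95 (SE 0.14); Got2 measured 117 and 99.1, then 601 and 513, and rose by 2.35. Stag3, the nearest measured coding gene, fell in cardiomyocytes (-0.73). Gm7125, a pseudogene in RefSeq, is 95.3% identical to Hmgn2, a nucleosome-binding protein gene. It went in ventricles from 3.504 to 0.86 (slope -0.38, adjusted p = 0.013; 0.092 without E17), and Hmgn2 from 155 to 36.9 (slope -0.56). Khdrbs3, 51358 bp from Gm7125, had no called slope (0.12). Reads of such near copies can hardly be separated, so the levels of Gm10874 and Gm7125 may be those of the coding genes.

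Gm42743 at chr3:96073644-96082924 (mm9) lies in a histone gene cluster and overlaps Hist2h2bb on the same strand. It measured 82.7, 64.2, 12.2, 6.75 and 7.77 FPKM in the ventricles, a slope of -0.96 (SE 0.16, adjusted p = 0.0090; 0.068 without E17), and 0.34 to 0.64 in cells. Hist2h3b, a histone gene 580 bp away, went from 15.7 to 1.31 (slope -0.80) and was under 1 FPKM in cells. D830013O20Rik measured 0.59 at E17 and 5.53 to 9.66 afterwards; its ventricle slope (0.57, adjusted p = 0.048) was 0.17 with an adjusted p of 0.31 without E17, and its neighbour Slc38a6 had no call (-0.07). It rose in cardiomyocytes by 1.35 (SE 0.12) and was at most 0.0876 in fibroblasts. Gm13166, near-identical to 4 other genes, measured 15.3 to 20.1 in ventricles and 2.19 to 5.196 in cells, with no call for stage.

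Falls in fibroblasts were also called for genes beside coding genes. 5033430I15Rik, 277 bp from Atxn1, measured 1.63 and 1.40, then 0.31 and 0.52 FPKM in fibroblasts (-0.83, SE 0.14, adjusted p = 0.0026) and 3.29 to 3.67 in cardiomyocytes; Atxn1 had no call in fibroblasts (-0.36). AI480526, 527 bp from Setd1b, measured 4.49 and 4.28, then 2.53 and 1.94 in fibroblasts (-0.74, SE 0.20, adjusted p = 0.021); the call was lost without either neonatal fibroblast library (adjusted p 0.096 and 0.088) or the PN60 library (-0.61, adjusted p = 0.054). Its rise in cardiomyocytes (0.75) was 0.48 with an adjusted p of 0.074 without PN30 and 0.66 with 0.079 without neonatal cardiomyocyte library 2. Setd1b had no call in either. AI480526 has 2 near-identical genes, of which the closest, Gm38102, matches at 100% identity over 73% of the length, so its level is uncertain.

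Among genes with a call in cardiomyocytes for stage, 16 had a measured coding gene within 10000 bp. That neighbour was called in the same direction for 5 (9330158H04Rik, Gm15728, Gm16548, C030037D09Rik and Gm17300), in the opposite direction for 5 (1700020I14Rik, Snhg12, Gm12319, Epb41l4aos and Neat1) and not called for 6. Of the 4610 called genes of any type with such a neighbour, 41.0% had one called in the same direction, 28.5% in the opposite direction and 30.4% one with no call. For stage in fibroblasts the counts were 4, 1 and 3, against 30.4%, 14.1% and 55.4% of all such genes. For the difference between the stage changes they were 5, 0 and 11, against 36.3%, 23.6% and 40.1%. Of the same-direction genes in these counts, 9330158H04Rik, Gm16548, Gm17300 and 4930562F07Rik overlap that coding gene on the opposite strand. Reads of such a pair cannot be told apart where they overlap unless strand was used. The 19 genes outside the naming rule had means below 8 FPKM in both sets, and their changes in cardiomyocytes ran from -0.87 (Gm38399) to 1.73 (1810012K08Rik).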

How the data were processed

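The authors deposited isoform FPKM and coverage values from Cufflinks 2.1.1 after TopHat2 2.0.5 alignment to mm9, per the submitters' processing notes, for 94696 transcripts in 13 libraries. Read totals are not in these values, so depth per library is unknown; the median ratio of deposited coverage to FPKM ran from 19.4 to 32.7, and the median half-width of the deposited interval over the 49 genes from 11.1% to 13.7%. Names and gene types came from GENCODE M21 (82379 transcripts, 87.0%, matched by identifier), whose coordinates are GRCm38.p6. Gene FPKM was the sum over matched transcripts of at least 200 nt; genes with a failed estimate in a set (90 in cells, 64 in ventricles) were left out, none of the 49 among them. FPKM was scaled by median ratios within the 8 cell libraries and within the 5 ventricle libraries. Genes with a mean of at least 1 were tested with limma 3.58.1 (trend, R 4.3.3) on log2(FPKM + 1), so fold changes of low genes are understated. Cells were fitted as 4 classes and ventricles as a slope over stage order, two-sided, Benjamini-Hochberg adjusted over all genes, called below 0.05. With single ventricle libraries, and single libraries at each later day, the spread comes from the residuals of these fits. Copies were found with blastn 2.17.0, and promoters, microRNAs and gene types came from RefSeq. Genes are named by rule: the 10 highest means in each set, the 5 largest called rises and 5 largest called falls in the stage changes, their difference, the cell type difference and the ventricle slope, with the nearest measured coding gene, and every gene on a role list. Some neighbouring genes are not reported here. The 49 genes and the lists were chosen with earlier results of these data known. Alternatives tried were pseudocount, filter, scaling, limma trend, transcript filters, stage classes and leaving out each library.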

Additional observations from a re-analysis of the deposited data

Results flagged for a closer look

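For 32 of the 44 genes tested in cells, the stage change (later minus neonatal, log2 of FPKM + 1) differed between cardiomyocytes and fibroblasts (limma, adjusted p under 0.05, test of the difference). All values here are the cardiomyocyte change minus the fibroblast change, and both rest on 2 libraries a stage. The difference was positive for 20 genes. It was 3.85 for Gm5532, 3.78 for 9330158H04Rik and 3.57 for Prr33. It lay above 2 for Tmem250-ps (2.40), 4930429F24Rik (2.29), 1810058I24Rik (2.23), Gm10874 (2.18) and 1810012K08Rik (2.04). Tmem250-ps and 1810012K08Rik overlap, so their values may not be separate. The difference was 1.65 for Gm12319, 1.64 for 1700020I14Rik, 1.49 for AI480526, 1.45 for Gm12295 and 1.43 for D830013O20Rik. Smaller positive values were 1.27 for C030037D09Rik, 1.22 for 4632415L05Rik, 1.15 for Gm5860, 0.93 for AW112010, 0.88 for C230035I16Rik, 0.82 for Gm10479 and 0.79 for 5033430I15Rik. The call for AW112010 was lost with a pseudocount of 0.1, as given above. Gm10479 lay near the threshold (adjusted p = 0.039), and it has 12 near-identical genes, so its level is uncertain.

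The difference was negative for 12 genes. It was -4.99 for Gm16548, -4.63 for Gm12840 and -2.42 for Snhg12. It was -1.72 for Malat1, -1.46 for Gm15728, -1.29 for Mir17hg, -1.27 for 4930562F07Rik, -1.23 for Gm14005 and -1.20 for Gm38399. The smallest were -0.82 for Epb41l4aos, -0.51 for Gm17300 and -0.40 for Gm10076. Those 3 lost their call in several leave-one-out fits: without neonatal cardiomyocyte library 1 the adjusted p was 0.12 for Epb41l4aos, 0.13 for Gm17300 and 0.061 for Gm10076.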

How the results depend on the processing

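Of 192 called results for the genes, 133 kept their call under every alternative run and 152 under every alternative that left no library out; none of 3199 values reversed and 243 were no longer called. Counts that moved by more than 1.5 times were these. With mitochondrial genes removed and sums equal, 14 genes were called down in cardiomyocytes with stage, 17 down in fibroblasts, and 6 up and 10 down in ventricles. On FPKM as deposited, 17 were down in fibroblasts, and 8 up and 12 down in ventricles. A pseudocount of 0.1 gave 14 down in fibroblasts. With no filter on low values, 5 were lower in neonatal cardiomyocytes than in neonatal fibroblasts, and 8 rose and 3 fell in ventricles; a filter at a mean of 2 gave 3 falls in ventricles. Leaving out 1 library in turn gave 5 to 10 up and 4 to 10 down in fibroblasts with stage, 9 to 18 higher and 4 to 9 lower in neonatal cardiomyocytes, and 3 to 14 up and 1 to 6 down in ventricles. A selection threshold of 5 FPKM left 30 genes, and 1 gave 69. The cause of these shifts was not tested. A fit on log2 days in the ventricles was not run. No paired analysis was possible because the labels pair no libraries across groups. Read depth is not known, so no counting interval can be given.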
